A study of Mus musculus with 11 samples.

Results

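The expression of 10 genes of the cullin-RING ubiquitin ligases was examined in the gingival epithelium of mice with and without an earlier loss of Langerhans cells (LCs). The genes were the 6 cullins Cul1, Cul2, Cul3, Cul4a, Cul4b and Cul5, the RING subunit Rbx1, the F-box receptors Skp2 and Fbxw7, and the exchange factor Cand1. They were taken by name from the 19170 genes that have values, and all 10 have values, with means of 10 normalized counts or more. Cul1 was chosen by its normalized counts in this same contrast, where it was higher after DT, so its difference is described without a test, and the others were chosen by name as its relatives and partners. The question asked was whether the other 9 genes moved with it. All 11 mice were langerin-DTR animals kept under specific pathogen-free conditions. The paper's methods name male mice, while its reporting summary states that the findings hold for both sexes. These animals carry the diphtheria toxin receptor under the control of langerin, so that diphtheria toxin (DT) kills every langerin-expressing cell and not LCs alone. The control group of 5 mice received PBS and the other 6 received DT. Injections were made at the ages of 17, 24 and 31 days, and epithelium was separated from the gingiva at 8 weeks of age. By then LCs were back in the epithelium according to flow cytometry in the study. The labels do not say whether the mice came from separate litters or cages, and each mouse gave a single library.

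Cullin-RING ligases attach ubiquitin to other proteins and thereby set how long these proteins last. A cullin is a curved scaffold. Its far end binds a RING protein, usually Rbx1, which docks the ubiquitin-carrying enzyme, and its near end binds an adaptor and an exchangeable receptor that selects the substrate. The ligase built on Cul1 is called SCF, after the adaptor Skp1, the cullin and an F-box receptor such as Skp2 or Fbxw7. The small protein NEDD8 switches a cullin on, the COP9 signalosome takes NEDD8 off, and Cand1 then lets receptors be exchanged. In stratified epithelium these ligases are best known for the control of the cell cycle, of beta-catenin and of the oxidative stress response.

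In the RefSeq promoter table (GRCm38.p6), 9 of the 10 genes were matched, with 14 windows of the 250 bases before a transcript start. The windows of Cul1, Cul3 and Cul4b that hold no annotated exon are shown, because these are the gene the question starts from, the most abundant cullin and the cullin with the lowest difference between the groups. Capitals mark motif letters on either strand.
Cul1, chr6:47454507-47454756, plus strand: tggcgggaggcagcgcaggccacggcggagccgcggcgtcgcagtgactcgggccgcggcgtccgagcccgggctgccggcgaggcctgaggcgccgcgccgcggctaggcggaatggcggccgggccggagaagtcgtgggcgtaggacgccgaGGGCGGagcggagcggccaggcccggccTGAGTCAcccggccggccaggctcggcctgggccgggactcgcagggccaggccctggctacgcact
Cul3, chr1:80340691-80340940, minus strand: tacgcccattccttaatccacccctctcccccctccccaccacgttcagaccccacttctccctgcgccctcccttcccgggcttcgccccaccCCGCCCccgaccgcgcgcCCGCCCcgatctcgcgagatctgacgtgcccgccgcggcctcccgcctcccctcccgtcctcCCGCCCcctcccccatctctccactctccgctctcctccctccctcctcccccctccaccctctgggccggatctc
Cul4b, chrX:38576197-38576446, minus strand: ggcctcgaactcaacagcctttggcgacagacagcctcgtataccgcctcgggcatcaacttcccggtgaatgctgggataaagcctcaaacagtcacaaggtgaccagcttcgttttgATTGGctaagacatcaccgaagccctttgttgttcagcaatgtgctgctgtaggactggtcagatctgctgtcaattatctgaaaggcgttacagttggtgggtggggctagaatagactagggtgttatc
The Cul1 window lies inside the annotated Cul1 gene, before an inner start listed by RefSeq. The bases after the listed start were found in a GENCODE transcript of the gene for Cul4b, but not for the Cul1 and Cul3 windows shown. Its GC content was 80.0%, against 73.2% for Cul3 and 50.8% for Cul4b. The Cul1 window holds a GC box (GGGCGG) and, closer to the start, a match to the AP-1 motif TGANTCA, which do not overlap. The Cul3 window holds 3 GC boxes, all read on the opposite strand, and the Cul4b window a single CCAAT box on the opposite strand. Of the 14 windows, which belong to 9 genes, 9 held a GC box, 3 a CCAAT box (CCAAT), 1 the AP-1 motif, 1 the E-box CACGTG (another window of Cul1) and 0 the CRE motif TGACGTCA. Among all 32851 promoter windows of this length, the shares that hold these motifs on either strand were 32.7%, 33.8%, 6.75%, 6.02% and 1.55% in the same order. Such matches describe letters and say nothing about binding.

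Each mouse had between 17509328 and 24325513 reads counted on genes, and the deposited values are reads divided by the size factor of the mouse, called normalized counts below. Keratinocyte markers were abundant, 8 of 8, and their summed level was between 1906500 and 2083800 normalized counts after PBS and between 1897900 and 2150900 after DT. On the first principal component PBS 3 and PBS 5 scored 17.2 and 20.9, far from the -13.0 to -11.9 of the rest of their group. The DT-treated mice lay between these sets, from -9.09 to 10.5. The result for each of the 10 genes is also given without PBS 3 and PBS 5. The PBS-treated mice then left all score below every DT-treated mouse, so a fit without these 2 is a description and no firmer support. All 7 LC markers had negative differences, with 0 past the threshold; their sum was between 2159 and 4998 after PBS and between 1598 and 3054 after DT, and langerin itself (Cd207) had 10.0 to 43.0 and 15.8 to 21.6. Of the 7 markers of cycling cells, 6 had negative differences and 0 passed the threshold, with sums of 9353 to 10760 after PBS and 7984 to 10230 after DT. All 12 immediate early genes, the first to respond when a cell is stimulated, had positive differences and 9 passed the threshold; their sum was between 27170 and 67896 after PBS and between 71830 and 114410 after DT, without overlap. Of the marker genes of other cells, 0 passed the threshold, and the summed levels overlapped between the groups. These sums were between 10.0 and 55.3 normalized counts after PBS and between 13.1 and 35.4 after DT for 5 T cell genes, 49.6 to 91.3 and 42.2 to 82.7 for 2 neutrophil genes, and 59.8 to 103 and 51.4 to 118 for 5 endothelial genes. For 5 skeletal muscle genes they were 9.11 to 47.2 and 10.8 to 37.6, for 4 salivary gland genes 110 to 251 and 68.4 to 221, and for 6 fibroblast genes 1252 to 1450 and 1109 to 1594, most of it Dcn. The part that any of these cells or responses had in the values below was not tested, and fewer cells of a type cannot be told apart from less RNA per cell in whole epithelium.

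All 6 cullins were expressed, at levels that spread widely. Per kilobase of exon, Cul3, the scaffold for BTB-domain receptors, was the most abundant, with 744 ± 28.3 normalized counts per kb after PBS (SD, n = 5). Cul1 followed with 472 ± 17.6, and no PBS-treated mouse had a Cul1 level within the range of Cul3 or of Rbx1. Rbx1 (254 ± 20.6), Cul4a (249 ± 7.36), Cand1 (228 ± 10.4), Cul4b (210 ± 16.9) and Cul2 (179 ± 10.8) came next. Among neighbors in this order, the ranges of Rbx1 and Cul4a, of Cand1 and Cul4b, and of Cul4b and Cul2 overlapped after PBS. The range of Rbx1 also overlapped those of Cand1 and Cul4b, so the order within these pairs is not resolved. Cul5, the scaffold for SOCS-box receptors, was lower at 110 ± 6.11 per kb. The F-box receptors were the least abundant of the 10 genes, with 70.9 ± 4.55 per kb for Fbxw7 and 10.8 ± 1.92 for Skp2, and neither overlapped a neighbor. The order by mean was kept after DT, when the neighbors that overlapped were Rbx1 and Cul4a, Cul4a and Cand1, and Cul4b and Cul2. These levels depend on the length used: per kilobase of the longest transcript, Rbx1 was at 432 and Cul4a at 428 after PBS, apart from Cand1 (246), Cul4b (243) and Cul2 (198), and Fbxw7 was at 112.

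**Figure D1:**
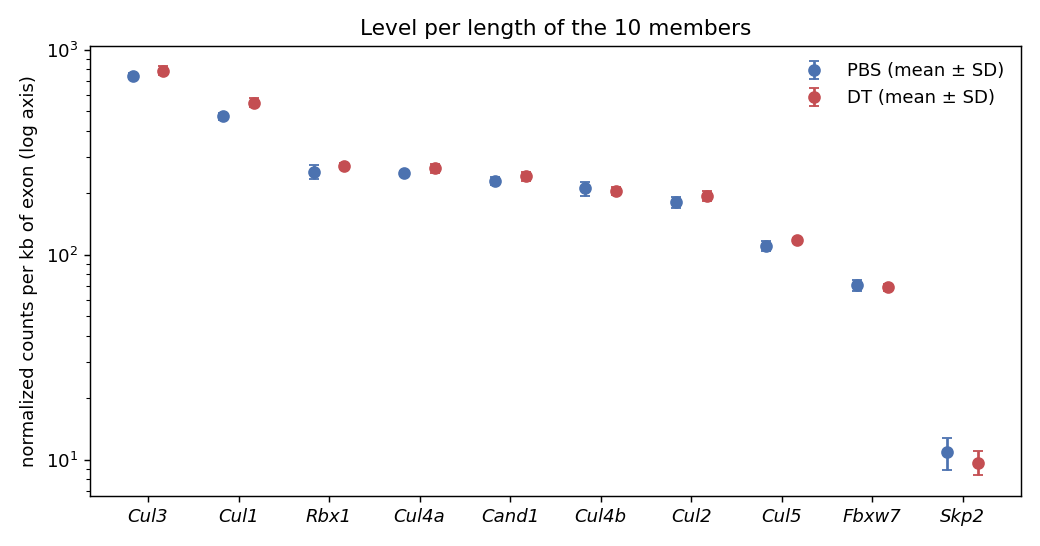
Normalized counts per kilobase of exon (log axis) of each of the 10 genes, as the mean of 5 PBS-treated and 6 DT-treated mice with SD. Cul3 and Cul1 lie above the other genes, at 744 and 472 after PBS, and Skp2 lies lowest at 10.8.

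Cul1, the scaffold of the SCF ligases, was higher in each DT-treated mouse than in any PBS-treated mouse. It lies on chromosome 6 from 47453398 to 47526139 on the plus strand (GRCm38), with a pseudogene inside its span on the other strand. Its normalized counts were 1959.8, 1979.5, 1838, 1931 and 1825 in PBS 1 to PBS 5. In DT 1 to DT 6 they were 2077, 2121, 2299.7, 2180.3, 2321 and 2343. The lowest PBS values were those of PBS 3 and PBS 5, and a gap remained between the highest PBS value and the lowest DT value. The means were 1906 ± 71.1 (SD, n = 5) and 2224 ± 113 (SD, n = 6), a ratio of 1.17 and a log2 difference of 0.22 with a standard error of 0.048. Without PBS 3 and PBS 5 the log2 difference was 0.18, and with any single mouse of the 11 left out it stayed between 0.21 and 0.24. Of all genes, 0.902% had every DT value above every PBS value; since this contrast chose Cul1, nothing is read from that share.

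Cul3, the most abundant cullin, had groups that overlapped. It lies on chromosome 1 from 80264923 to 80340480 on the minus strand. Its normalized counts were 3604, 3442, 3673, 3821 and 3590.5 after PBS, and ranged from 3633 to 4119 after DT with a median of 3756. The highest PBS value lay above 4 of the 6 DT values, though all 6 were above the PBS mean. The log2 difference was 0.08 with a standard error of 0.048, a 95% interval of -0.02 to 0.18 and a limma adjusted p of 0.528.

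Cul2, the scaffold for VHL and related receptors on chromosome 18, had the highest difference after Cul1. It had 765, 791, 691, 733 and 804 normalized counts after PBS, while the DT values had a median of 828 and ranged from 729.95 to 866. DT-treated mice exceeded every PBS-treated mouse in 5 of 6 cases, and DT 2, at 729.95, fell among the PBS values. For Cul2 the log2 difference was 0.11 with a standard error of 0.058 (95% interval -0.01 to 0.23, limma adjusted p = 0.488).

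Cul5 lies on chromosome 9 from 53614582 to 53670014 on the minus strand and overlaps an antisense gene. Its normalized counts were 957, 936, 844, 853 and 909 after PBS and ranged from 922 to 997 after DT, with a median of 957. All DT values were above the PBS mean, and 3 of the 6 were above every PBS value. This gave a log2 difference of 0.09 with a standard error of 0.050 (95% interval -0.02 to 0.20, limma adjusted p = 0.504).

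The paralogs Cul4a and Cul4b, which both bind the adaptor Ddb1, had differences of opposite sign. Cul4a, on chromosome 8 from 13105621 to 13147940 on the plus strand, had 1562, 1635.5, 1557, 1657 and 1567 normalized counts after PBS and 1566 to 1764 after DT, with a median of 1711. For Cul4b, on chromosome X from 38533274 to 38576196 on the minus strand, the values were 917, 802, 806, 810.5 and 734 after PBS and 744 to 822 after DT, with a median of 791. In Cul4a 4 of the 6 DT values lay above every PBS value, whereas the Cul4b values of the DT-treated mice all lay within the PBS range. The log2 difference was 0.08 for Cul4a (standard error 0.047, 95% interval -0.02 to 0.18, limma adjusted p = 0.549). For Cul4b it was -0.04 (standard error 0.059, 95% interval -0.17 to 0.08, limma adjusted p = 0.835), and the sign of Cul4b rested on PBS 1, without which the difference was 0.00066. The difference between the paralogs was not tested.

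**Figure D2:**
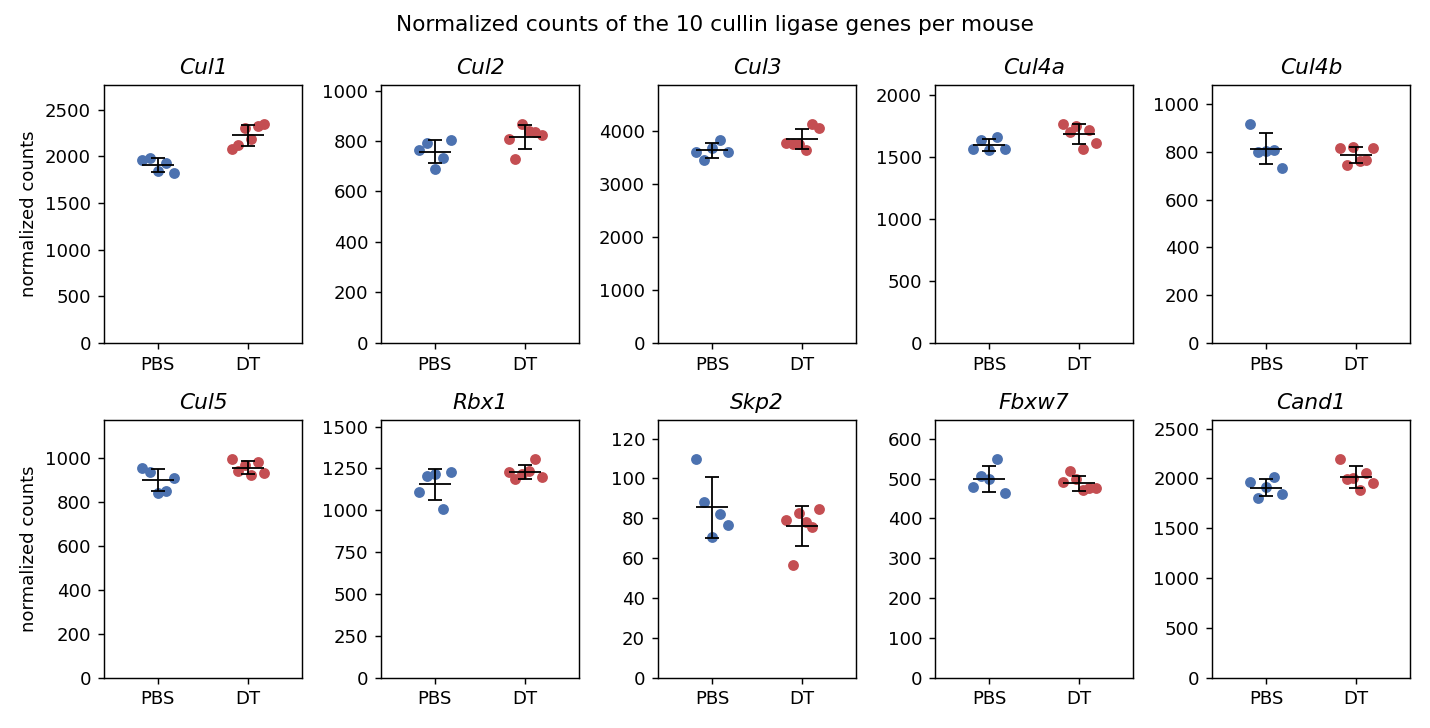
Normalized counts of each of the 10 genes (vertical axis from 0) in 5 PBS-treated mice (blue) and 6 DT-treated mice (red), a point per mouse, with the mean and SD in black. In Cul1 every DT value, from 2077 up, lies above every PBS value, the highest of which is 1979.5, and in each of the other 9 genes the groups overlap.

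Of the partners, Rbx1 carries the RING domain shared by most cullins and Cand1 binds cullins that are free of NEDD8. Rbx1 lies on chromosome 15 from 81466296 to 81476369 on the plus strand. It had 1111, 1203, 1218, 1009 and 1229.7 normalized counts after PBS and 1189 to 1306 after DT, with a median of 1221. All DT values lay above the PBS mean, which PBS 1 and PBS 4 pulled down, and 2 of 6 lay above every PBS value. Its log2 difference was 0.09 (standard error 0.057, 95% interval -0.03 to 0.21, limma adjusted p = 0.561), and it ranged from 0.05 without PBS 4 to 0.15 without PBS 3 and PBS 5. Cand1, on chromosome 10 from 119199255 to 119240055 on the minus strand, had 1969, 1799.7, 1919, 2009.8 and 1844 after PBS and 1884 to 2195 after DT, with a median of 1999. Only DT 1 and DT 5 exceeded the highest PBS value of Cand1. Its log2 difference was 0.08 (standard error 0.050, 95% interval -0.03 to 0.18, limma adjusted p = 0.583).

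Both F-box receptors had negative differences with intervals that hold 0. Skp2, which marks the cell cycle inhibitor p27 for degradation, lies on chromosome 15 from 9111985 to 9155425 on the minus strand and overlaps Lmbrd2 on the other strand. Its normalized counts were 109.8, 88.4, 70.4, 82.0 and 76.6 after PBS and 56.6 to 84.9 after DT, with a median of 78.7. PBS 1 was the highest and DT 2 the lowest of the 11 mice, and the other 9 values overlapped. The log2 difference of Skp2 was -0.16 with a standard error of 0.14 (95% interval -0.45 to 0.14, limma adjusted p = 0.708), and it was -0.06 without PBS 1 and -0.29 without PBS 3 and PBS 5. Fbxw7, the receptor for cyclin E, MYC and JUN, lies on chromosome 3 from 84815268 to 84979198 on the plus strand, within which 2 other genes are annotated. It had 479.8, 506, 498, 549 and 465 normalized counts after PBS and 470.2 to 518 after DT, with a median of 483. All Fbxw7 values of the DT-treated mice lay within the PBS range. The log2 difference was -0.03 (standard error 0.058, 95% interval -0.15 to 0.09, limma adjusted p = 0.878), and 0.0030 without PBS 4.

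Skp2 had the least depth of the 10 genes. Between 1732 and 2677 reads per mouse lay behind Cul1 and between 67 and 97 behind Skp2. Counting error alone would give a coefficient of variation of 2.20% for Cul1 and 11.2% for Skp2, and within the groups it was 4.52% and 15.4%. The 95% interval of Skp2 was accordingly wide, from -0.45 to 0.14. It holds 0 and differences of either sign.

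The other genes were then read together against the higher level of Cul1. Of the 9 other genes, 6 had positive differences (Cul2, Cul3, Cul4a, Cul5, Rbx1 and Cand1) and 3 had negative ones (Cul4b, Skp2 and Fbxw7). The median difference of the 9 was 0.08 on the log2 scale, as was that of the 5 other cullins, against -0.01 for all genes tested, of which 47.3% had positive differences. By limma 0 of the 9 passed an adjusted p under 0.1, where 0.558% of all genes did, and 0 had an unadjusted p under 0.05, where 11.5% of all genes did. In 0 of the 9 were the groups free of overlap, where 1.65% of all genes were. No difference between Cul1 and another gene was tested, since Cul1 was chosen by this value, and nothing is read from its own interval. Without PBS 3 and PBS 5 the differences were 0.10 for Cul2, 0.08 for Cul3, 0.06 for Cul4a, -0.09 for Cul4b, 0.07 for Cul5, 0.15 for Rbx1, -0.29 for Skp2, -0.07 for Fbxw7 and 0.06 for Cand1. The intervals of the 6 positive genes hold 0 and also hold rises of up to 0.18 to 0.23, so that a small shared rise was neither shown nor bounded away. Under the 21 other settings tried, 0 of the 9 passed the threshold, and the lowest adjusted p by limma was 0.142, for Rbx1 without PBS 3 and PBS 5.

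**Figure D3:**
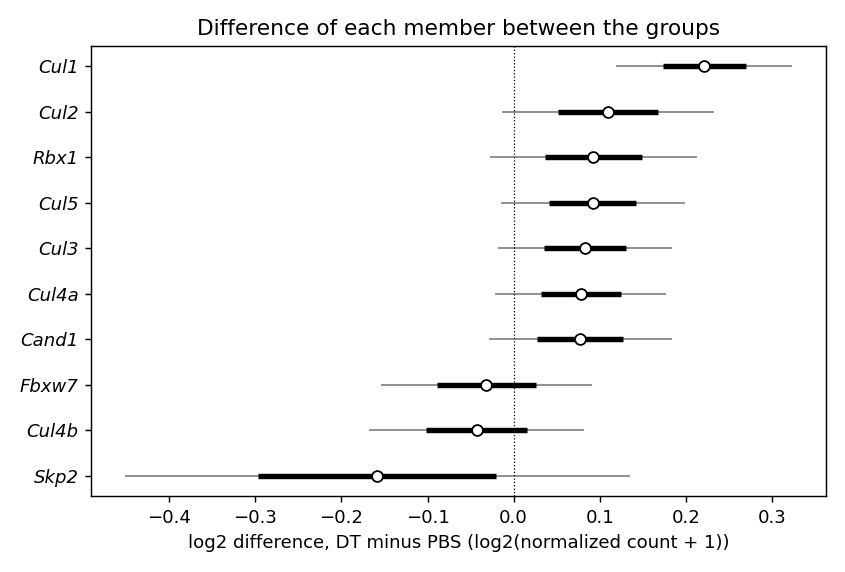
Log2 difference between DT-treated and PBS-treated mice (horizontal axis) for each of the 10 genes, with thick bars for the standard error and thin bars for the 95% interval. Cul1 lies at 0.22 and the 6 other genes with positive differences lie between 0.08 and 0.11. The intervals of the genes other than Cul1 hold 0. Nothing is read from the interval of Cul1, which was chosen by its higher level.

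As a share of all cullin transcript per kilobase, Cul1 made up 24.01% ± 0.61 (SD, n = 5) in the PBS group and 26.0% ± 0.74 (SD, n = 6) in the DT group. These shares overlapped between the groups, since PBS-treated mice had 23.5% to 24.99% and DT-treated mice 24.6% to 26.6%. Cul3 held the greatest share in both groups, with 37.9% ± 1.364 and 37.2% ± 0.96. The share of Cul4b was 10.7% ± 0.72 after PBS and 9.62% ± 0.40 after DT. The shares of a mouse sum to a whole, so a greater share of Cul1 lowers the others.

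Within the groups, apart from the difference between groups by which Cul1 was chosen, the genes varied together only loosely. After the group means were taken out, the Pearson correlation of Cul1 with the other genes across the 11 mice was 0.60 for Skp2, 0.45 for Cul2, 0.41 for Cul4b, 0.39 for Cul3 and 0.20 for Cul5. It was 0.01 for Cul4a, -0.01 for Fbxw7, -0.14 for Rbx1 and -0.21 for Cand1. Taken in the 5 PBS-treated and the 6 DT-treated mice apart, the sign differed for Cul3 (-0.27 and 0.68), Cul4a (0.57 and -0.19), Cul5 (0.53 and -0.12), Fbxw7 (0.41 and -0.44), Rbx1 (-0.47 and 0.30) and Cand1 (0.09 and -0.37), and it was positive in both for Cul2, Cul4b and Skp2. For comparison, the median correlation with Cul1 was 0.02 over the 10018 genes whose mean reached 100 normalized counts. The 5th and 95th percentiles were -0.57 and 0.58, and the ligase genes other than Skp2 lay between them. Skp2, with means of 85.4 after PBS and 76.2 after DT, is not among the 10018 genes. Values of the same mouse share its library and its size factor, and these correlations are given as a description. Over all 45 pairs of the 10 genes the median was 0.08, and 28 pairs were positive. The highest were Cul4b with Skp2 (0.77), Cul2 with Skp2 (0.65), Cul4a with Fbxw7 (0.61) and Cul4a with Cand1 (0.60), and the lowest was Rbx1 with Fbxw7 (-0.67). The genes most like Cul1 within the groups were Wtap (0.92), a subunit of the RNA m6A methyltransferase complex, Gpr161 (0.90), a receptor of the primary cilium, Lgalsl (0.89), Frmd6 (0.87) and Camk2g (0.87). Their log2 differences between the groups were 0.03, -0.21, 0.16, 0.09 and 0.01, and 0 of these 5 passed the threshold.

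The other genes of the cullin ligase pathway were then examined in 10 lists by role, which hold 235 genes, 231 of them with values. After DT 2 of the 231 were higher by limma and 0 were lower at an adjusted p under 0.1, where 0.313% and 0.245% of all genes were. An unadjusted p under 0.05 was found for 42 of them, 25 higher and 17 lower, where 11.5% of all genes had one in either direction. Positive differences were found for 120 of the 231, and the median was 0.01. In 7 of the genes every DT value lay above every PBS value, where 0.902% of all genes did, and in 2 every DT value lay below. Of all 19170 genes, 317 (1.65%) were free of overlap in either direction, and 173 of these had DT above. The number of calls rested on PBS 3 and PBS 5. Without them 17 of the 231 were higher and 14 lower, where 922 and 1045 of all 19170 genes were. The PBS-treated mice then left lie at the low end of the first principal component, below every DT-treated mouse, so these calls are a description.

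Among the scaffold and RING genes 0 of 6 passed. Rnf7, the RING partner of Cul5, had 814, 860.02, 841, 719 and 1047 normalized counts after PBS and 938 to 1160.5 after DT, with a median of 1000.3. PBS 5 lay within the DT range and the other PBS values below it. The log2 difference of Rnf7 was 0.25 (standard error 0.081, limma adjusted p = 0.255), and without PBS 5 it was 0.32 and passed the threshold (limma adjusted p = 0.049), as it did without PBS 3 and PBS 5 (0.34, limma adjusted p = 0.016). Cacul1, a protein with a cullin domain, had a difference of 0.09. Of 7 genes on the list of adaptors and accessory subunits, 0 passed. Their median was 0.08, with 0.16 for the accessory subunit Cks2 and 0.08 for Ddb1, the adaptor of Cul4a and Cul4b.

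Genes of the NEDD8 cycle had mostly positive differences that did not pass the test. Of 11 neddylation genes 9 had positive differences, with a median of 0.06. Dcun1d3, which helps to load NEDD8 on cullins, had 1094, 1065, 965, 1167.5 and 1108 normalized counts after PBS and 1169 to 1259 after DT, with a median of 1206. Its groups did not overlap, by a margin of under 2 normalized counts, and the log2 difference was 0.17 (standard error 0.052, limma adjusted p = 0.221). Its relative Dcun1d5 had a difference of 0.25 (standard error 0.069, limma adjusted p = 0.196). Of 13 genes of the COP9 signalosome and of receptor exchange 10 had positive differences and 0 passed. Cops9, a signalosome subunit, had 455, 547, 453, 377 and 697 normalized counts after PBS and 595 to 701 after DT, with a median of 641. PBS 5 was again the PBS value within the DT range. The log2 difference of Cops9 was 0.38 (standard error 0.12, limma adjusted p = 0.222), and 0.50 without PBS 5 (limma adjusted p = 0.018), as without PBS 3 and PBS 5 (limma adjusted p = 0.0095). Cand2, the relative of Cand1, had a difference of -0.18 (standard error 0.080, limma adjusted p = 0.395).

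Of 9 E2 enzymes and their RBR partners, which deliver ubiquitin to cullin ligases, 7 had positive differences and 0 passed. Ube2d3, which starts ubiquitin chains, had 5947, 5878, 6019.8, 5651 and 5890.4 normalized counts after PBS and 6269 to 6909 after DT, with a median of 6782. The groups did not overlap, and the log2 difference was 0.18 (standard error 0.044, limma adjusted p = 0.118). Ube2d3 passed under 5 of the 21 other settings, among them without PBS 3 and PBS 5 (0.19, limma adjusted p = 0.028). Arih1, a ligase that works on cullins switched on by NEDD8, had a difference of 0.11 and groups without overlap (standard error 0.041, limma adjusted p = 0.302).

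Receptors, which choose the substrate, were spread around 0. Of 54 F-box receptors 25 had positive differences and 0 passed, with a median of -0.01. The lowest p-values were those of Fbxo45 (log2 difference 0.18, limma adjusted p = 0.192) and Fbxo33 (log2 difference 0.23, limma adjusted p = 0.215). Of 49 BTB receptors of Cul3 22 were positive and 0 passed, with a median of -0.01. Enc1 (0.34, limma adjusted p = 0.102) and Klhl9 (0.25, limma adjusted p = 0.125) had groups without overlap. Without PBS 3 and PBS 5 both passed (Enc1 0.35, Klhl9 0.16, limma adjusted p = 0.034 and 0.096). Of 24 DCAF receptors of Cul4a and Cul4b 13 were positive and 0 passed. The lowest p-values there belonged to genes with negative differences, Brwd3 (-0.24, limma adjusted p = 0.145) and Dtl (-0.42, limma adjusted p = 0.242), the receptor that marks the replication factor Cdt1. Brwd3 passed without PBS 3 and PBS 5 (-0.32, limma adjusted p = 0.0095). Of 38 VHL and SOCS box receptors of Cul2 and Cul5 16 were positive, and Spsb3 had a difference of 0.18, which without PBS 3 and PBS 5 was 0.28 and passed (limma adjusted p = 0.0099).

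Socs3, a feedback inhibitor of cytokine signaling with a SOCS box, was the receptor gene that passed. Its normalized counts were 535, 329, 337, 1378 and 326 after PBS and 864 to 1855 after DT, with a median of 1516. PBS 4 lay within the DT range, and the other 4 PBS values lay below it. This was a log2 difference of 1.501 (standard error 0.31, limma adjusted p = 0.061). The call was lost on leaving out any of 8 of the 11 mice (without PBS 1, PBS 2, PBS 3, DT 1, DT 3, DT 4, DT 5 or DT 6), and the adjusted p by limma then lay between 0.104 and 0.170.

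Among 20 textbook substrates, whose proteins cullin ligases degrade, Jun was higher after DT. It encodes a subunit of AP-1, is a substrate of Fbxw7 and is also on the list of immediate early genes. The normalized counts of Jun were 8196, 6278, 6980.3, 12419 and 5133 after PBS and 13063 to 19505 after DT, with a median of 15832. PBS 4 was the highest PBS value, as in Socs3, and the groups did not overlap. The log2 difference was 1.11 (standard error 0.17, limma adjusted p = 0.0090). Nfkbia, an inhibitor of NF-kB that SCF ligases degrade, had a difference of 0.35 (standard error 0.092, limma adjusted p = 0.164), and 0.43 without PBS 3 and PBS 5 (limma adjusted p = 0.019). Over the 20 substrates 9 differences were positive and the median was -0.04. These are transcript levels, and the amounts of the proteins were not analysed here.

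**Figure D4:**
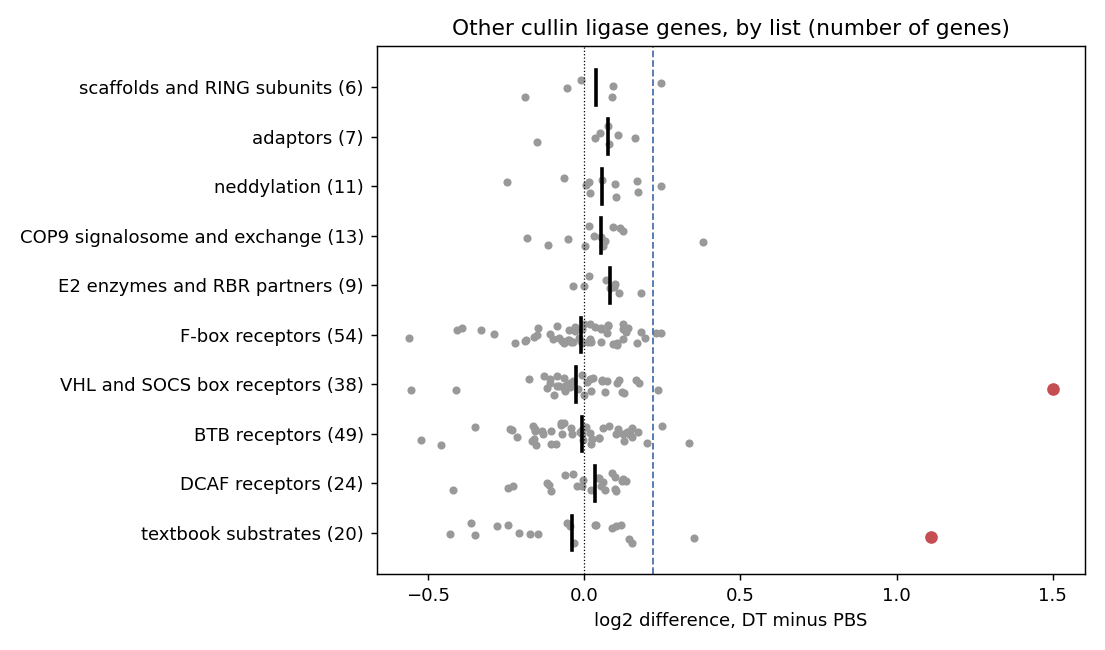
Log2 difference between DT-treated and PBS-treated mice (horizontal axis) for 231 cullin ligase genes in 10 lists, a point per gene, with the median of each list as a black bar and genes past an adjusted p of 0.1 in red. The list medians lie between -0.04 and 0.08, Socs3 (1.501) and Jun (1.11) are the red points, and the dashed blue line marks Cul1 at 0.22.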

How the data were processed

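Gingival epithelium of 11 mice was measured by stranded polyA RNA-seq. The paper's reporting summary names a stranded mRNA kit, while its methods process the reads by the QuantSeq guide. Levels per kb assume reads along the whole transcript. The deposited values are not raw counts: per the labels, the authors trimmed reads with cutadapt 2.10, aligned them with TopHat2 2.1.1 to GRCm39, counted them per gene with HTSeq 2.01 and divided the counts by size factors of DESeq2 1.36.0, while the paper's methods name GRCm38 and older versions. Of 55414 genes listed, 36244 have no value, and the smallest summed count was 10 reads. Dividing by the smallest step of each mouse gave whole reads for 100% of values (tolerance 0.1), and from these the depth. Positions and lengths came from GENCODE M21 (GRCm38), which holds 19117 (99.7%) of the gene identifiers, and per-kb levels use the union of exons. The source does not say how strand was used in counting, so values of overlapping genes on either strand are uncertain.

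Here log2(normalized count + 1) was fitted for all 19170 genes with limma 3.58.1 (R 4.3.3, intensity trend, no covariate) in all 11 mice, with Benjamini-Hochberg adjustment over all genes and a threshold of 0.1. Fold changes on this scale understate those of low genes. Intervals are 95% from this fit. p-values measure the spread between these mice. The fit was tested on simulated data. For the principal components, the 500 genes of highest variance were used, among those whose mean reached 10. The members and the gene lists were chosen with earlier results of these data known. Named were all 10 members, of each pathway list the genes past the threshold and the 2 with the lowest p, and the 5 genes most correlated with Cul1. Of the lists, Asb4, Asb9, Asb14 and Kbtbd12 have no value.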

Additional observations from a re-analysis of the deposited data

Results flagged for a closer look

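In 3 of the 60 sets of values checked (30 genes, each in the PBS-treated and the DT-treated mice), a single mouse stood apart by Dixon's criterion, and chance alone marks about 1 set in 20. For Skp2, DT 2 had 56.6 normalized counts, where the other DT-treated mice had 75.6 to 84.9. For Rnf7, DT 4 had 1160.5, above the 938 to 1008 of the other DT-treated mice. For Socs3, PBS 4 had 1378, where the other PBS-treated mice had 326 to 535.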

How the results depend on the processing

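Over the 21 settings tried, 0 of the 9 genes other than Cul1 passed the threshold, and their median difference stayed between 0.06 and 0.10. The sign changed for Cul4b without PBS 1 (0.00066, from -0.079 on leaving out other mice) and for Fbxw7 without PBS 4 (0.0030, from -0.057). The number of pathway genes higher after DT, 2 in the fit reported, was 4 with genes of a mean of at least 10, 4 with TMM scaling, 6 with array weights and 17 without PBS 3 and PBS 5, and it was between 1 and 6 when a mouse was left out (1 without PBS 1, PBS 2, DT 1, DT 3, DT 4, DT 5 or DT 6, 5 without PBS 4, 6 without PBS 5). The number lower, 0 in that fit, was 1 with quantile normalization, 1 with array weights, 14 without PBS 3 and PBS 5, and 0 to 1 when a mouse was left out. Over all genes, 60 higher and 47 lower became 922 and 1045 without PBS 3 and PBS 5. With a replicate block by title number 1 pathway gene was higher, and by library number 0 were (Jun 1.07, limma adjusted p = 0.119), and over all genes 24 were higher and 11 lower by title number, and 0 by library number. Socs3 passed under neither (limma adjusted p = 0.150 and 0.254). The deviations of same-numbered mice had correlations from -0.23 to 0.32, with 1 of 5 PBS-treated mice closest to the DT-treated mouse of its title number. These correlations cannot show whether same-numbered mice shared a litter, a cage or a preparation, so whether the numbers pair the mice is not known. With the longest transcript as length, the Cul1 share of the cullins after PBS was 25.2% in place of 24.01%. The median correlation of Cul1 with the other 9 genes, 0.20, was between 0.046 and 0.36 when a mouse was left out. The cause of these changes was not tested. Tests on counts with edgeR and DESeq2, planned as alternatives, were not run; the reads recovered from the deposited values were used for depth alone. Counting error limits Skp2 most.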
